A study of Canis lupus familiaris with 8 samples.

Results

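The Hippo pathway restrains growth in epithelia and responds to cell density, cell shape and tension. Its kinases LATS1 and LATS2 phosphorylate the coactivators YAP1 and TAZ (gene WWTR1) and keep them out of the nucleus, where they would otherwise act through TEAD transcription factors. NF2 (merlin) and the angiomotins promote the restraint at junctions and on actin. AMOTL2, LATS2 and the kinase gene NUAK2 are known both as parts of the pathway and as transcriptional targets of YAP and TAZ. AMOTL2 and LATS2 act against YAP, whereas NUAK2 is reported to favour its activity.

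The genes described here are 10 listed components and feedback genes of this pathway, AMOT, AMOTL1, AMOTL2, LATS1, LATS2, NUAK2, YAP1, WWTR1, TEAD1 and NF2. They were picked by symbol from a table of 37952 genes, and all 10 were found in it. Of these, 9 genes passed the filter on low counts and were tested among 14571 genes. The remaining gene, AMOT, had 0 counts in all 8 wells.

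RNA came from monolayers of MDCK GII, an established dog kidney epithelial cell line. Cells were plated on collagen-coated elastic silicone membranes and grown overnight. In the stretch group, a vacuum under the membrane strained it by 18%, alike along both axes of its plane, and this strain was kept up for 2 hours until lysis. The control group was not strained, and the labels do not say which kind of well of the device it occupied. Each group had 4 wells, numbered 1 to 4 in the sample titles. The labels call them technical replicates distributed over separate devices, so the errors describe wells of 1 line and p-values measure the spread between wells, which may be technical.

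The wells held 27047358 to 32478887 counts each. The 9 epithelial markers examined summed to 5158 to 5757 CPM, the TMM-normalised read count relative to library size, in the control group and 5469 to 5562 CPM in the stretch group. The keratins KRT8 and KRT18 made up most of this, with control means of 2457 and 1212 CPM. CDH16 was scarce, at means of 1.27 CPM in control and 1.65 CPM in stretch wells. Of 6 mesenchymal markers, COL1A2 and COL3A1 were at 0 in every well and vimentin made up most of the sum of 2436 to 3057 CPM. Of 3 blood cell markers in the table, PTPRC and CD3E were at 0 and CD68 had up to 32 counts per well, which gave sums of 0.498 to 0.698 CPM in the control group and 0.412 to 0.993 CPM in the stretch group. The 4 endothelial markers summed to 1.03 to 1.73 CPM and 0.790 to 1.61 CPM.

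Among the 9 tested genes, AMOTL2, LATS2 and NUAK2, were higher after stretch in all 4 same-numbered pairs of wells, as were 8.45% of all tested genes. Their log2 changes were 0.58 for AMOTL2, 0.32 for LATS2 and 0.61 for NUAK2, or 1.49-fold, 1.24-fold and 1.53-fold. The other 6, which include both coactivators, TEAD1, LATS1, AMOTL1 and NF2, had log2 changes between -0.06 and 0.04. The call for the 3 genes depended on the model. In edgeR's quasi-likelihood test of stretch against control without further terms, 0 of the 9 genes and 0 of all 14571 (0% called) had an adjusted p under 0.05. At an unadjusted p under 0.05 there were 2 of the 9 genes in that fit, against 3.97% of all genes. In the fit with the replicate block, described next, there were 3 of the 9, against 8.89% of all genes. DESeq2 without the block called 1 of the 9 at an adjusted p under 0.05, AMOTL2, against 0.275% of all genes. With the replicate number as a block, termed the blocked fit here, edgeR called 3 of the 9, all higher, against 0.7% of all genes (0.528% higher and 0.172% lower). DESeq2 with the same block called 3 of the 9 too, against 0.995% of all genes.

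**Figure D1:**
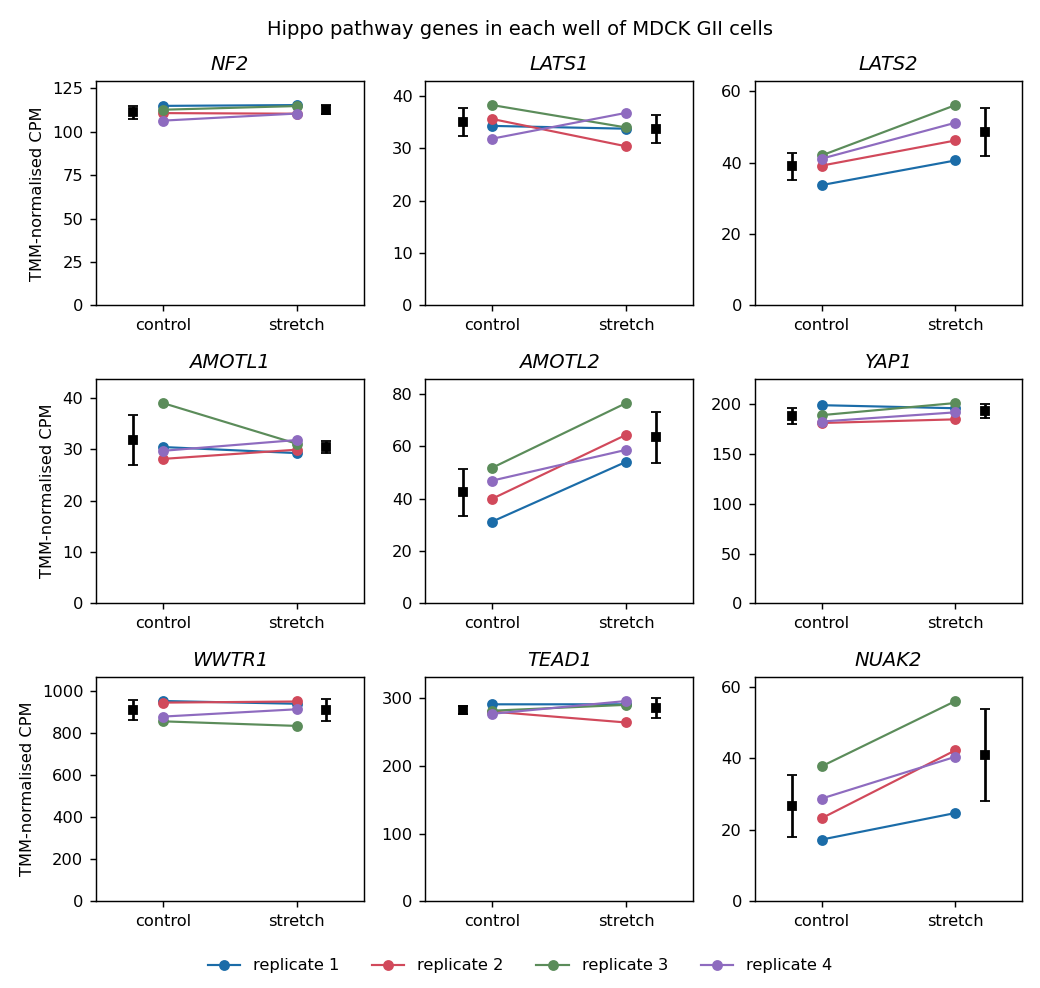
TMM-normalised CPM of the 9 detected Hippo genes in each well, with 1 panel per gene, an axis that starts at 0, lines joining wells of the same replicate number, and black squares with bars for the mean and SD of 4 wells. All 4 lines rise for AMOTL2, LATS2 and NUAK2, and the wells of NUAK2 span 17.3 to 37.7 CPM in the control group and 24.7 to 55.97 CPM in the stretch group.

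NF2 encodes merlin, a membrane-associated scaffold that recruits LATS kinases. It lies on chromosome 26 (23223162 to 23302265, plus strand, with exons merging into 23 blocks). Control replicates 1 to 4 had 115, 111, 113 and 106 CPM, and stretch replicates 1 to 4 had 115, 110, 115 and 110 CPM. The groups overlapped from 110 to 115 CPM, and control replicate 4 was the only well below that. NF2 had a log2 change of 0.020 ± 0.046 (SE, n = 4 each), with a 95% confidence interval from -0.08 to 0.12 (edgeR, adjusted p = 0.999).

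The LATS kinases are the core step that inactivates YAP and TAZ. LATS2 is on chromosome 25 (17176853 to 17248494, plus strand, 8 exon blocks). Its control wells had 33.7, 39.2, 42.0 and 41.1 CPM in the order of replicates 1 to 4, and its stretch wells had 40.7, 46.3, 56.2 and 51.2 CPM. For LATS2, 3 of the 4 stretch wells were above every control well, while stretch replicate 1 lay below control replicates 3 and 4. Group means were 39.0 ± 3.72 CPM and 48.6 ± 6.66 CPM (SD, n = 4 each). Its log2 change was 0.32 ± 0.10 (SE) with no block (edgeR, adjusted p = 0.964) and 0.31 ± 0.05 in the blocked fit (adjusted p = 0.00522). Within pairs, LATS2 was higher by 0.27, 0.24, 0.42 and 0.32 on the log2 scale for replicates 1 to 4. Without replicate 1 of both groups, LATS2 had a log2 change of 0.32 and missed the threshold in edgeR's blocked fit (adjusted p = 0.058).

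LATS1, the paralog of LATS2, is on chromosome 1 (40704342 to 40723233, minus strand, 5 exon blocks). Its control wells had 34.2, 35.5, 38.2 and 31.8 CPM, and its stretch wells had 33.7, 30.3, 33.9 and 36.7 CPM. The groups overlapped, and 3 of 4 pairs were lower after stretch while replicate 4 was higher. The log2 change was -0.05 ± 0.08 (SE), with a 95% confidence interval from -0.22 to 0.11 (edgeR, adjusted p = 0.999). That interval and the one for LATS2, from 0.10 to 0.53, overlap slightly without the block. In the blocked fit they were -0.20 to 0.09 for LATS1 and 0.20 to 0.42 for LATS2.

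Angiomotins are scaffolds of tight junctions and actin that bind YAP directly. AMOT on chromosome X (86409254 to 86474116) had no count in any well, which at this depth allows at most 0.111 CPM in the shallowest well (3 counts; counting error only). AMOTL2 on chromosome 23 (31666646 to 31684285, minus strand, 10 exon blocks) was the one gene of the 9 whose groups did not overlap. Among all tested genes, every stretch well lay above every control well in 1.3%, and below in 1.24%. Control wells 1 to 4 had 31.2, 39.97, 51.8 and 46.9 CPM of AMOTL2, and stretch wells 1 to 4 had 54.1, 64.4, 76.5 and 58.6 CPM. The lowest stretch well, replicate 1, exceeded the highest control well, replicate 3, by a small margin. The log2 change was 0.58 ± 0.16 (SE, n = 4 each) without the block (edgeR, adjusted p = 0.93). In the blocked fit it was 0.59 ± 0.07 (edgeR, adjusted p = 6.2e-04), the 8th smallest p of all tested genes. DESeq2 without the block gave AMOTL2 an adjusted p of 0.036. The rise within pairs was 0.79, 0.69, 0.56 and 0.32 on the log2 scale for replicates 1 to 4.

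AMOTL1 on chromosome 21 (6188761 to 6359356, minus strand, 21 exon blocks) is the third member of the family. Its control wells had 30.4, 28.1, 39.0 and 29.7 CPM, and its stretch wells had 29.3, 29.9, 31.1 and 31.8 CPM. Control replicate 3 was the highest of the 8 wells, and the other 7 lay between 28.1 and 31.8 CPM. AMOTL1 had a log2 change of -0.06 ± 0.09 (SE), with a 95% confidence interval from -0.26 to 0.14 (edgeR, adjusted p = 0.999), and it was 0.05 without control replicate 3. One gene on the opposite strand, LOC111091483, overlaps exons of AMOTL1 and had 0 counts in every well.

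YAP1 and WWTR1 encode the coactivators YAP and TAZ themselves. YAP1 on chromosome 5 (29533412 to 29638553, minus strand, 9 exon blocks) had 199, 181, 189 and 182 CPM in control wells and 196, 184, 201 and 192 CPM in stretch wells. WWTR1 on chromosome 23 (44796227 to 44929932, minus strand, 7 exon blocks) had 953, 945, 856 and 879 CPM in control wells and 940, 950, 834 and 913 CPM in stretch wells. For WWTR1, replicates 1 and 2 were above replicates 3 and 4 in both groups, and for both genes the groups overlapped. The log2 change of YAP1 was 0.042 ± 0.047 (SE), with a 95% confidence interval from -0.06 to 0.14 (edgeR, adjusted p = 0.999). The log2 change of WWTR1 was 0.0021 ± 0.051, with an interval from -0.11 to 0.11 (edgeR, adjusted p = 0.999).

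TEAD1 encodes a DNA-binding partner of YAP and TAZ, on chromosome 21 (36273664 to 36543422, plus strand, 15 exon blocks). Its control wells had 291, 280, 281 and 277 CPM, and its stretch wells had 291, 264, 290 and 295 CPM. Stretch wells spanned a wider range than control wells, on both sides of it. TEAD1 had a log2 change of 0.015 ± 0.045 (SE), with a 95% confidence interval from -0.08 to 0.11 (edgeR, adjusted p = 0.999). An opposite-strand gene that overlaps TEAD1 exons, LOC111091560, had at most 2 counts per well.

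NUAK2 encodes an AMPK-related kinase that is activated by LKB1 and acts on myosin regulation. It lies on chromosome 38 (2381515 to 2399704, minus strand, 8 exon blocks). Control wells 1 to 4 had 17.3, 23.2, 37.7 and 28.7 CPM of NUAK2, and stretch wells 1 to 4 had 24.7, 42.2, 55.97 and 40.4 CPM. Both groups had their lowest well in replicate 1 and their highest in replicate 3, and control replicate 3 was above stretch replicate 1. The log2 change was 0.61 ± 0.31 (SE, n = 4 each) without the block, with a 95% confidence interval from -0.11 to 1.33 (edgeR, adjusted p = 0.999). In the blocked fit it was 0.61 ± 0.06, from 0.47 to 0.75 (edgeR, adjusted p = 1.6e-04), and only 3 of the 14571 genes had a smaller p. Pairs 1 to 4 rose by 0.52, 0.86, 0.57 and 0.49 on the log2 scale.

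**Figure D2:**
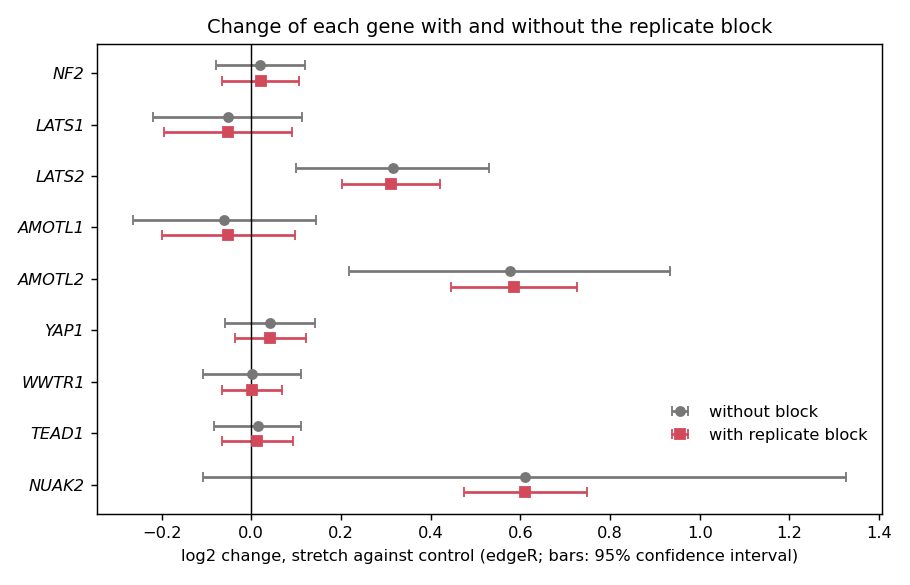
Log2 change of each gene after stretch (x axis) from edgeR without a block (grey circles) and with the replicate block (red squares), with 95% confidence intervals. The values barely differ between the fits while the intervals narrow, most of all for NUAK2, from -0.11 to 1.33 without the block to 0.47 to 0.75 with it.

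The spread of log2 CPM over the 8 wells was split for each gene, as sums of squares. Its parts went with the replicate number, with the stretch label or with neither (the remainder). The replicate number has more levels than the stretch label and so takes more of any random spread. The parts are therefore best read beside the medians over all tested genes. For NUAK2 the replicate number took 63.3%, stretch 34.7% and the remainder 2.05%. AMOTL2 had 33.4%, 61.2% and 5.36% in the same order, and LATS2 had 46.1%, 51.5% and 2.47%. The remainder was also small in WWTR1 (6.33%), NF2 (9.16%) and YAP1 (16.2%), and larger in AMOTL1 (41.0%), TEAD1 (44.5%) and LATS1 (70.5%). The medians over all tested genes were 57.5% for the replicate number, 6.59% for stretch and 26.9% for the remainder. WWTR1 had 93.7% in the replicate number and 0.016% in stretch, at a total SD of 0.07 on the log2 scale.

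**Figure D3:**
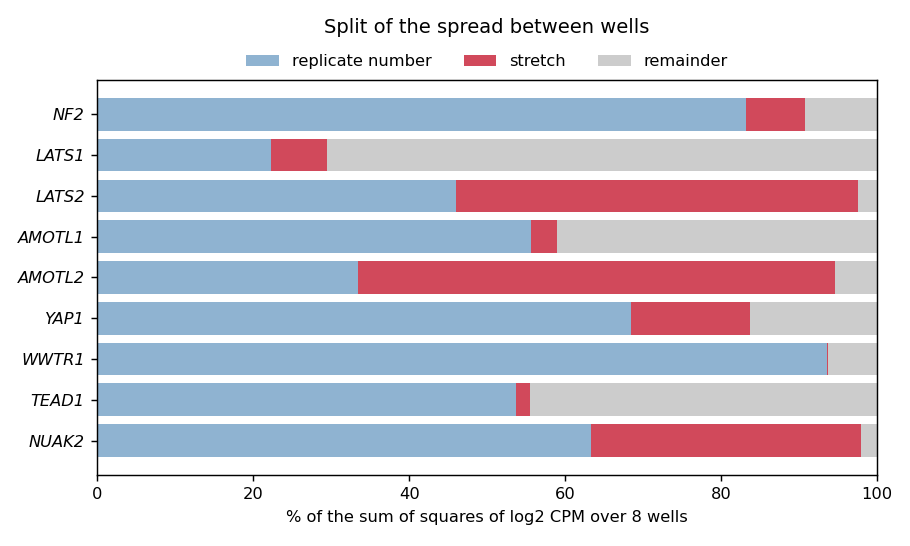
Split of the spread of log2 CPM over 8 wells, in % of the sum of squares (x axis), into replicate number (blue), stretch (red) and remainder (grey) for each detected gene. Stretch takes 61.2% for AMOTL2, 51.5% for LATS2 and 34.7% for NUAK2, and 15.3% or less for the other 6 genes.

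Replicates 1 and 2 and replicates 3 and 4 were also examined separately. AMOTL2 had log2 changes of 0.73 in replicates 1 and 2 and 0.46 in replicates 3 and 4. LATS2 had 0.25 and 0.37, and NUAK2 had 0.72 and 0.54. All 3 were higher in both subsets, and none passed in either comparison of 2 wells against 2 (edgeR, adjusted p from 0.0593 to 0.87). With a block of only these 2 levels, LATS2 passed (edgeR, adjusted p = 0.0181), while AMOTL2 and NUAK2 did not (adjusted p = 0.218 and 0.601), against 0.398% of all genes called.

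Levels can be set beside each other only per length, here as CPM per kb of the exon length in the table. In control wells WWTR1 led with 197 ± 10.4 CPM per kb, followed by YAP1 with 40.0 ± 1.73, TEAD1 with 30.7 ± 0.65 and NF2 with 15.005 ± 0.49 (SD, n = 4). The ranges of these 4 genes over all 8 wells did not overlap. LATS1 (10.4 ± 0.79), AMOTL2 (9.87 ± 2.07), NUAK2 (7.91 ± 2.57) and LATS2 (7.13 ± 0.68) followed, and each of these overlapped its neighbour in the order. AMOTL1 came last of the detected genes with 3.27 ± 0.50 CPM per kb. After stretch AMOTL2 stood at a mean of 14.7 ± 2.25 and NUAK2 at 12.1 ± 3.79 CPM per kb, next below NF2 at 15.2 ± 0.36. Their ranges overlapped that of NF2. In stretch replicate 3 AMOTL2 was at 17.8, NUAK2 at 16.6 and NF2 at 15.5 CPM per kb.

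The makeup of the families was read from the same per-length values and is described without a test. AMOTL2 made up 69.9%, 76.3%, 75.0% and 78.1% of the angiomotins in control wells and 80.7%, 82.9%, 84.8% and 80.6% in stretch wells, without overlap. The mean share went from 74.8 ± 3.53% to 82.3 ± 1.99%. LATS2 made up 37.8% to 44.3% of the LATS kinases in the control group and 42.6% to 50.5% in the stretch group, overlapping between groups but higher in 4 of 4 pairs. TAZ transcripts (WWTR1) made up 83.1 ± 0.81% of the YAP1 and WWTR1 total in control wells and 82.7 ± 1.31% in stretch wells, less than the spread between wells. TEAD1 held 42.7 ± 2.00% and 42.6 ± 1.71% of the 4 TEAD factors, and NUAK2 held 92.8 ± 2.64% and 94.2 ± 0.996% of the NUAK pair. The NUAK2 share was higher in 3 of 4 pairs. Its difference was 1.43 points over all wells and -0.12 points in replicates 3 and 4 only.

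**Figure D4:**
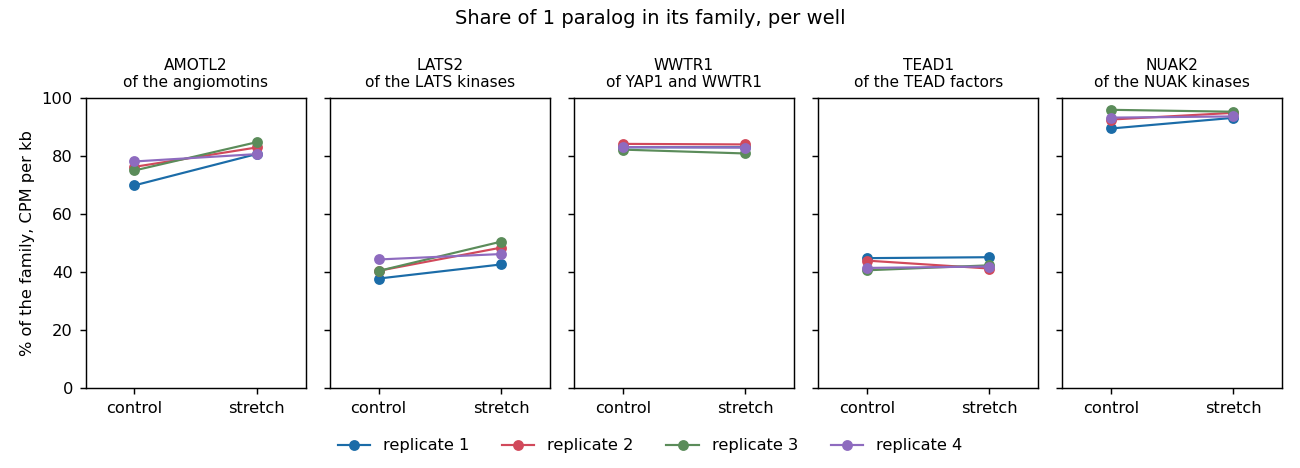
Share of 1 paralog in its family in each well, in % of the family's CPM per kb (y axis, from 0 to 100), with lines joining wells of the same replicate number. AMOTL2 goes from a mean of 74.8% to 82.3% with no overlap between groups, LATS2 is higher in all 4 pairs, and the shares of WWTR1 and TEAD1 stay within the spread between wells.

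The surrounding pathway was read from 4 lists of other genes. Of 36 upstream and core Hippo genes, such as the MST kinases STK3 and STK4, their partner SAV1 and the LATS cofactors MOB1A and MOB1B, 33 were tested and 0 passed in edgeR with or without the block. At an unadjusted p under 0.05 there were 2 of the 33 without the block and 3 with it, beside 3.97% and 8.89% of all genes, so the blocked count was near the background share. Their median log2 change was -0.02, beside -0.0032 for all tested genes. STK3 was at 13.4 and 13.04 CPM, STK4 at 53.3 and 54.9, and MOB1A at 300.0 and 296.8 in control and stretch wells. PTPN14, a junctional phosphatase that binds YAP, had the smallest p of the list in the blocked fit, with 76.0 ± 3.55 and 84.1 ± 4.60 CPM and a log2 change of 0.15 (edgeR, blocked fit, adjusted p = 0.197). It was higher in 4 of 4 pairs, overlaps 1 gene on the opposite strand and also stands on the list of target genes. AJUBA, a LIM protein that inhibits LATS kinases, had 255 ± 24.5 and 271 ± 23.5 CPM (blocked fit, adjusted p = 0.517), and it also overlaps an opposite-strand gene. RASSF5 had 15 to 49 counts per well and a log2 change of 0.76 (blocked fit, adjusted p = 0.402).

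Of 9 other TEAD factors and TEAD partners, 8 were tested and 0 passed in edgeR in either fit. At an unadjusted p under 0.05 there were 2 of the 8 in each fit, beside 3.97% of all genes without the block and 8.89% with it. VGLL4, which competes with YAP for TEAD factors, had 45.7 to 51.8 CPM without strain and 41.7 to 45.3 CPM with it. All 4 stretch wells were below all control wells, as in 1.24% of all tested genes. The log2 change of VGLL4 was -0.18 ± 0.06 (SE; edgeR, adjusted p = 0.999 without the block and 0.168 in the blocked fit). TEAD3 had 15.6 ± 1.09 and 17.3 ± 0.41 CPM (edgeR, blocked fit, adjusted p = 0.604). Its lowest stretch well (16.93 CPM) was just above its highest control well (16.89 CPM), a separation upward found in 1.3% of all tested genes. VGLL1 had 5 to 22 counts per well (edgeR, blocked fit, adjusted p = 0.561). Per length, TEAD2 stood at 23.5 ± 0.92 and TEAD4 at 12.5 ± 3.12 CPM per kb in control wells, below TEAD1.

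The LKB1 and NUAK list holds NUAK1, LKB1 (STK11) with its cofactors, related kinases and the myosin phosphatase that NUAK kinases act on. Of 18 genes, 16 were tested and 0 passed in edgeR in either fit, with 0 at an unadjusted p under 0.05 in both. NUAK1 was scarce, at 3.19 ± 0.36 and 4.05 ± 0.77 CPM with a log2 change of 0.35, and it overlaps a gene on the opposite strand (edgeR, blocked fit, adjusted p = 0.592). STK11 had 59.8 ± 3.00 and 56.0 ± 3.34 CPM (adjusted p = 0.676) and MARK2 had 74.3 ± 4.01 and 71.7 ± 1.97 CPM (adjusted p = 0.857). Whether NUAK2 and NUAK1 differed in their change was not tested.

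Among 19 other YAP/TAZ target genes, 14 were tested, with a median log2 change of 0.16 and 12 of 14 positive, beside 7018 of 14571 positive in all. At an unadjusted p under 0.05 in edgeR there were 5 of the 14 without the block and 6 with it, beside 3.97% and 8.89% of all genes. At the adjusted threshold 0 passed without the block and 1 with it, beside 0% and 0.7% of all genes. That gene was CCN2, a matricellular growth factor gene. CCN2 had 6.67 to 13.5 CPM without strain and 13.7 to 21.6 CPM with it, and its log2 change was 1.07 ± 0.13 (SE) in the blocked fit (adjusted p = 0.00194). With the block of 2 levels its adjusted p was 0.0552. Its paralog CCN1 had 78.9 to 137 CPM without strain and 184 to 260 CPM with it, and its log2 change was 0.89 ± 0.13 in the blocked fit (edgeR, adjusted p = 0.149). DESeq2 called both CCN1 and CCN2 without the block, where it called 0.275% of all genes. GADD45A, a growth arrest gene, had 56.0 ± 6.20 and 64.5 ± 8.70 CPM (edgeR, blocked fit, adjusted p = 0.148). AMOTL2, LATS2 and NUAK2 are themselves commonly counted as YAP/TAZ targets. Their log2 changes of 0.32 to 0.61 lay below those of CCN1 and CCN2 but above the list's median of 0.16. Over the 14 tested targets the log2 changes ran from -0.03 to 1.76 without the block.

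**Figure D5:**
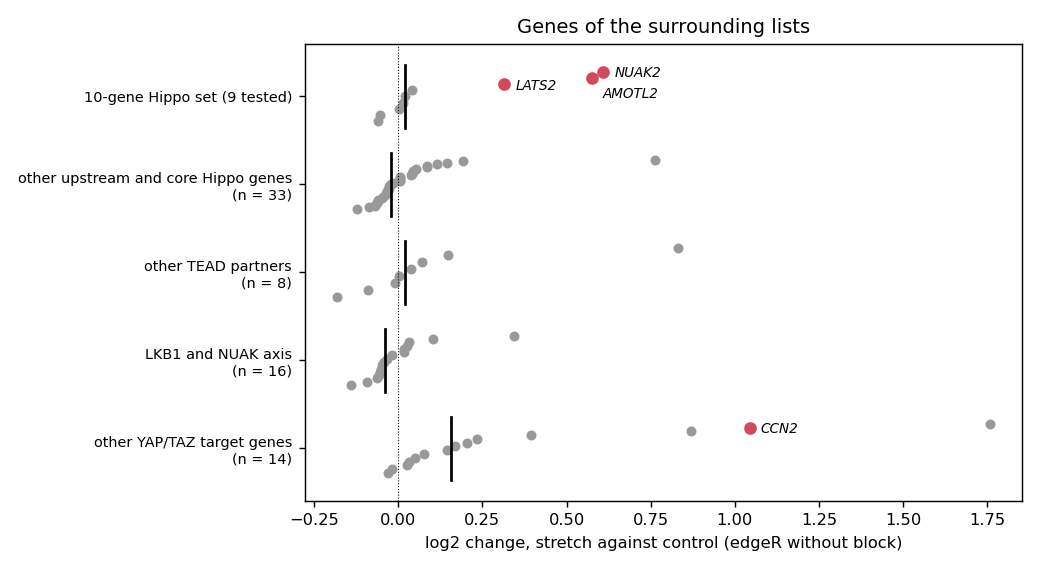
Log2 change after stretch from edgeR without the block (x axis) for the Hippo genes and the 4 surrounding lists, with 1 point per tested gene, red where the adjusted p is under 0.05 with the replicate block, and a black bar at the list's median. The medians lie at 0.02, -0.02, 0.02, -0.04 and 0.16 from top to bottom, and the red points are NUAK2, AMOTL2, LATS2 and CCN2.

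To see which other transcripts varied like AMOTL2, LATS2 and NUAK2, the centred log2 CPM of each was compared over the 8 wells with 11061 other genes of at least 5 CPM on average, by the root mean square difference. This is a description of these wells, which share the replicate structure above, and genes chosen this way are given without a test of stretch. Nearest to AMOTL2 were ICAM1 (a difference of 0.12 on the log2 scale), VEGFA (0.12), EPHA2 (0.13), LIF (0.14) and HBEGF (0.14). Nearest to NUAK2 were FST (0.12), DUSP6 (0.12), EPHA2 (0.14), PHLDA1 (0.16) and SNAI2 (0.18). These include secreted factors (VEGFA, LIF, HBEGF and FST), an ephrin receptor (EPHA2), a phosphatase that acts on ERK (DUSP6) and a transcription factor (SNAI2). EPHA2 appeared beside both AMOTL2 and NUAK2.

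FST, which encodes the activin antagonist follistatin, had 20.9 ± 7.67 CPM in control and 30.2 ± 9.37 CPM in stretch wells. ICAM1, an adhesion receptor gene that overlaps 1 opposite-strand gene, had 57.8 ± 13.5 and 76.1 ± 12.8 CPM. Nearest to LATS2 were LOC119873408 (0.055), the sialyltransferase gene ST3GAL4 (0.063), the kinase gene CLK4 (0.073), LOC100683760 (0.074) and LOC119870915 (0.074). ST3GAL4 had 67.1 ± 7.49 and 79.5 ± 11.1 CPM in control and stretch wells, and CLK4 had 15.2 ± 1.62 and 17.6 ± 2.00 CPM (SD, n = 4 each). AMOTL2 and NUAK2 differed from each other by 0.22, AMOTL2 and LATS2 by 0.19, and LATS2 and NUAK2 by 0.32. The 3 genes were not among each other's nearest 5. Of the 11061 genes, AMOTL2 was the 13th nearest to NUAK2, and LATS2 the 104th. From AMOTL2, LATS2 ranked 37th and NUAK2 60th. From LATS2, AMOTL2 ranked 2025th and NUAK2 10020th. The difference depends on the size of the swings as well as their shape. The SD over wells was 0.23 for LATS2, 0.40 for AMOTL2 and 0.55 for NUAK2.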

How the data were processed

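Polyadenylated RNA was sequenced from strand-specific libraries, per the labels. The authors deposited raw read counts per gene, taken over exons per the file header, with exon positions and lengths. The submitters' processing notes name FastQC 0.11.8, Trim Galore 0.6.5, STAR 2.7.3a, Subread and featureCounts. The genome build, the strand setting and the handling of multi-mapping reads are not given in the sources used here, so genes that overlap another on the opposite strand are uncertain. Positions are the table's own. For 37291 symbols they were identical to the RefSeq table of assembly UU_Cfam_GSD_1.0, and chromosome names come from it. Wells of a group differed by a chi-square per degree of freedom of 5.14 to 23.6, so no well was a duplicate of another in its group.

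Counts were tested in R 4.3.3 with edgeR 4.0.16 (TMM factors, filterByExpr at a minimum count of 10 and total of 15, glmQLFit with robust estimation, glmQLFTest), two-sided, with Benjamini-Hochberg adjustment over all tested genes at 0.05. The script was tested on simulated data. SEs are the log2 change divided by the root of F, and 95% intervals use the fit's degrees of freedom. The design had stretch alone. The replicate number as a block was a stated alternative. Deviations of same-numbered wells from their group means correlated by 0.108 to 0.328 across genes, over 0.1 in each of the 4 pairs. On this ground the numbers were taken to pair the wells, although the labels do not say what a number shares. In only 1 of the 4 pairs did the wells correlate best with each other. The correlations therefore do not show that wells pair by number, and calls that need the block rest on this choice. Alternatives used DESeq2 1.42.0, limma-voom (limma 3.58.1), other scalings and filters, subsets of wells and left-out wells. Centred profiles used log2 CPM with a prior count of 2. Figures were drawn with matplotlib 3.10.9 in Python 3.11.15.

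The members, the lists and the alternatives were chosen with earlier results of these data known. Named genes are the 10 members, the 3 genes of each list with the smallest p in the blocked fit and any that passed there, CCN1 and CCN2, and the 5 nearest profiles of AMOTL2, LATS2 and NUAK2. STK3, STK4, SAV1, MOB1A, MOB1B, TEAD2, TEAD4 and ANKRD1 were named after their values were seen.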

Additional observations from a re-analysis of the deposited data

Results flagged for a closer look

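Dixon's test, which divides the gap next to an extreme well by the spread of its group, was applied to 80 sets of 4 wells and singled out 1 well in 3 of them. Chance alone gives about 4 such sets at this level, and none of the 3 concerned a gene of the Hippo list itself. CCN2 had 13.5 CPM in control replicate 2 and 6.67 to 7.65 CPM in the other control wells. CCN1 had 78.9 CPM in control replicate 1 and 128 to 137 CPM in the others. HBEGF, one of the nearest profiles to AMOTL2, had 15.9 CPM in control replicate 1 and 21.9 to 23.0 CPM in the others.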

How the results depend on the processing

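In edgeR without the block, the number of all genes called went from 0 to 40 with DESeq2, 11 with no filter on low counts, 51 in replicates 1 and 2 only, 25 in replicates 3 and 4 only and 0 to 12 without single wells (12 without control replicate 3, 3 without stretch replicate 1). With the replicate block it was 102, with its 2-level form 58, with the block in DESeq2 145, with the block and no filter 448, and with the block and pair 1, 2, 3 or 4 left out 43, 67, 186 or 74. The Hippo genes called were 0 without the block in edgeR (also without any single well), 1 in DESeq2, 3 with the replicate block, 1 with the 2-level block, 3 with the block in DESeq2, 3 with the block and no filter, and 2 to 3 with a pair left out. The genes called on the 4 other lists were 0 without the block in edgeR (0 to 1 without single wells, with CCN2 called without control replicate 2), 2 in DESeq2, 1 in replicates 1 and 2 only, 1 in replicates 3 and 4 only, 1 with the block, 2 with it in DESeq2, 6 with it and no filter, and 1 to 3 with a pair left out.

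AMOTL2, LATS2 and NUAK2 kept a positive log2 change in all 25 alternatives. AMOTL2 passed at 0.58 in DESeq2 and, with the block, at 0.59 in edgeR, DESeq2 and without the filter. Its range was 0.46 to 0.69 without single wells and 0.52, 0.56, 0.59 and 0.68 without pairs 1 to 4 in the blocked fit, where it passed each time. LATS2 passed at 0.31 with the replicate block, the 2-level block, the block in DESeq2 and the block without the filter. Its range was 0.24 to 0.39 without single wells and 0.27 to 0.34 without pairs. NUAK2 passed at 0.61 with the block in edgeR, in DESeq2 and without the filter. Its range was 0.42 to 0.82 without single wells and 0.64, 0.53, 0.63 and 0.65 without pairs 1 to 4 in the blocked fit, where it passed each time.

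Genes near 0 changed sign in some settings and passed in none. AMOTL1 was at 0.016 in replicates 1 and 2 only and at -0.11 to 0.054 without single wells (0.044 without replicate 3 in the blocked fit), and LATS1 was at 0.021 in replicates 3 and 4 only and at -0.14 to 0.0088 without pairs in the blocked fit. WWTR1 was at -0.0061 and TEAD1 at -0.041 in replicates 1 and 2 only. Without single wells or pairs, WWTR1 ranged from -0.025 to 0.043 (-0.016 without replicate 4 in the blocked fit) and TEAD1 from -0.013 to 0.053. YAP1 and NF2 kept their sign in all 25. The cause of these changes was not tested. Of the 4 replicate numbers, 1 had wells that correlated best with each other, so the pairing is not specific to each number. Scaling moved the median of all genes by at most 0.0046 on the log2 scale.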

Other observations

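ANKRD1, the gene of a muscle ankyrin repeat protein and a widely used YAP/TAZ target, had the largest log2 change of all 14571 tested genes without the block, and was singled out after its values were seen. Control wells 1 to 4 had 0.698, 1.94, 2.78 and 3.86 CPM, and stretch wells 1 to 4 had 5.67, 6.54, 13.9 and 5.65 CPM. All stretch wells were above all control wells, as in 1.3% of all tested genes. Stretch replicate 3, also the highest stretch well of AMOTL2, LATS2 and NUAK2, was the highest. Raw counts were low, from 19 in control replicate 1 to 405 in stretch replicate 3. The log2 change was 1.76 ± 0.48 (SE, n = 4 each) without the block and 1.77 ± 0.42 with it, and neither passed (edgeR, adjusted p = 0.935 and 0.303). In edgeR it was called in replicates 1 and 2 only, in the blocked fit with no filter on low counts, and in the blocked fit without replicate 4.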
